A study of Mus musculus with 18 samples.

Results

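The inhibitors of nuclear factor kappa B (NF-kB) and the ubiquitin-editing enzyme A20 were followed in mast cells grown from mouse bone marrow, through the 7 genes Nfkbia, Nfkbib, Nfkbie, Nfkbid, Nfkbiz, Bcl3 and Tnfaip3. All probes of an Illumina mouse bead array that are annotated to these genes were taken, which gave 9 of 45281 probes: 2 each for Nfkbia and Nfkbie and 1 for each of the others. All 9 were among the 19514 probes kept for testing, those with a detection p below 0.05 on 3 or more of the 17 complete arrays, and the 7 genes were among 10529 named genes kept. The cells came from C57BL/6J mice aged 4 to 6 weeks, either wild type (WT) or knockout for ST2 (ST2KO), the receptor chain through which cells sense the cytokine IL-33. Each genotype was left without stimulation, given IgE or given IL-33 (4 h in both cases), and 3 arrays were run for every one of these 6 groups (n = 3 throughout). The labels do not say whether arrays of a group came from separate mice or cultures, so p-values measure the spread between these arrays, which may be technical, and they name no antigen or dose. Il1rl1, the gene that encodes ST2, was not analysed here, and so could not be used to check the labels.

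NF-kB dimers are held in the cytoplasm of resting cells by the IkB proteins. Receptors for IL-33 and for IgE activate the IKK complex, which marks the classical IkB proteins (IkB-alpha, IkB-beta and IkB-epsilon, from Nfkbia, Nfkbib and Nfkbie) for destruction and frees the dimers to enter the nucleus. Freed NF-kB induces the genes of several of its own inhibitors, which ends the signal. Nfkbid, Nfkbiz and Bcl3 encode the atypical, nuclear members of the family (IkB-NS, IkB-zeta and Bcl-3), which bind NF-kB on DNA and turn sets of target genes up or down. Tnfaip3 encodes A20, which removes and adds ubiquitin chains on signalling proteins upstream of IKK and is a feedback inhibitor of the same pathway. In mast cells the pathway is known for the induction of cytokine and chemokine genes.

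The promoters are shown first because several of these genes are known targets of NF-kB. RefSeq promoter windows on GRCm38.p6, from 250 bases before to 50 after the start of transcription, were matched for 6 of the 7 genes, all but Nfkbiz, with 9 windows in all. The RelA consensus of NF-kB, searched on both strands, matched in 5 of the 9 windows, one in each of Nfkbia, Nfkbid, Nfkbie, Bcl3 and Tnfaip3. Of 32851 promoter windows of this length in the table, 4.51% hold it, and 0.554% hold 2 or more matches, as the windows of Nfkbid and Tnfaip3 do. A match describes the letters and shows no binding. In the sequences below, each 300 bases read 5′ to 3′ along the gene, capitals mark the matches, written on the strand of the gene.
Nfkbia: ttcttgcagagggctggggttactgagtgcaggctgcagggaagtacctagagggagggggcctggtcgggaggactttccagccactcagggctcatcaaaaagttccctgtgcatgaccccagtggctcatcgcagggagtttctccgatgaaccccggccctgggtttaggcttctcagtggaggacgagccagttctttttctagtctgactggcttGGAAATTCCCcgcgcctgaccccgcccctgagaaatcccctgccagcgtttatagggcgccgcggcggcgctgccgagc
Nfkbid: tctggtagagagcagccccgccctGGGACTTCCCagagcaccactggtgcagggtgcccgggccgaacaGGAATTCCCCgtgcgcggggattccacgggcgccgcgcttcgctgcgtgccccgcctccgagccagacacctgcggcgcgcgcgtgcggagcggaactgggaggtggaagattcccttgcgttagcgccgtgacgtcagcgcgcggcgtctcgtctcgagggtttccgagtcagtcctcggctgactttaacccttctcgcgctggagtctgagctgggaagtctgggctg
Nfkbie: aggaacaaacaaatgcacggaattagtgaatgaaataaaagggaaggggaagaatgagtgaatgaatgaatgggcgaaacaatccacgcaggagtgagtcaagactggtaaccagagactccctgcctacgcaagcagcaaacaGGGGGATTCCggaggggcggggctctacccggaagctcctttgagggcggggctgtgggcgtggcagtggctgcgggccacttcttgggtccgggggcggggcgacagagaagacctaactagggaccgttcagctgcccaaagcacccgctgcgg
Bcl3: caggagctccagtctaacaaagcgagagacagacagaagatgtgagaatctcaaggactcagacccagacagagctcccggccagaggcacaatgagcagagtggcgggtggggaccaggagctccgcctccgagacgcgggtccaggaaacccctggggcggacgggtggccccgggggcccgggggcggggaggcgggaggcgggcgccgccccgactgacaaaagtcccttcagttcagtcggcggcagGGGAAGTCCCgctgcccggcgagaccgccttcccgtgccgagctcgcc
Tnfaip3: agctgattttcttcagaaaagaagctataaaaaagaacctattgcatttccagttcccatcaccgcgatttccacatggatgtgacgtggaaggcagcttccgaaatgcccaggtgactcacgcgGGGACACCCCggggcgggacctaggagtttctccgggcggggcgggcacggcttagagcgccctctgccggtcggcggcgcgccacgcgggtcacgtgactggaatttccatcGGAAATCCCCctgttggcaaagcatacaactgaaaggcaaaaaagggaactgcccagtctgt
Nfkbib: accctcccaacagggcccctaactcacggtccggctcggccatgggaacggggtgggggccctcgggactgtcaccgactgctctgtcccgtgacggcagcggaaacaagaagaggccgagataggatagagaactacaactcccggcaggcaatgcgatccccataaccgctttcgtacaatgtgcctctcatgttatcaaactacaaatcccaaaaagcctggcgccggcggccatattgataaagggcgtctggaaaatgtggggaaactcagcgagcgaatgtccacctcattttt
The Nfkbia window is chr12:55492598-55492897 on the minus strand, and its match GGAAATTCCC lies at -29, counted from the start site. In Nfkbid, which has 3 windows, the one shown is chr7:30422156-30422455 on the plus strand, with GGGACTTCCC at -226 and GGAATTCCCC at -181. Nfkbie (chr17:45555450-45555749, plus strand) holds GGGGGATTCC at -106. The Bcl3 match, GGGAAGTCCC in chr7:19822706-19823005 on the minus strand, begins 2 bases after the start site. The first of the 2 Tnfaip3 windows (chr10:19015361-19015660, minus strand) has GGGACACCCC at -125 and GGAAATCCCC at -12. Nfkbib (chr7:28766595-28766894, minus strand) is shown as the window without a match. The AP-1 site TGANTCA was found in 2 windows, those shown for Nfkbie and Tnfaip3, against 7.81% of all windows, and overlapped no NF-kB match. The NFAT core GGAAAA was found in 3 windows, of Nfkbib and of the other two start sites of Nfkbid, against 23.4% of all windows.

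The 10 mast cell markers examined, among them Kit, Fcer1a, Cpa3, Cma1 and Hdc, were detected on all 17 complete arrays. The median deposited intensity of those arrays was 86.4 to 97.9, with 35.1% to 38.6% of probes detected. In the remaining one (ST2KO IgE replicate 3) an intensity was given for 10012 of 45281 probes, and none of the 9 probes described here was among them. Its levels were instead placed according to the ranks that the probes hold in the authors' deposited log2 table, have no detection p, and are marked as placed by rank wherever they are printed. The arrays numbered 3 stood apart in all 6 groups: the mean level of 8 macrophage and dendritic cell markers was 1.37 to 2.13 log2 units higher on array 3 than on arrays 1 and 2 of its group, except in ST2KO IgE, where the difference was 1.065. Of 13 such markers 12 had a probe. Adgre1 and H2-Ab1 were detected on all 17 complete arrays and C1qb on none. C1qb, C1qc, Itgax and Fcgr1 were not kept for testing, while C1qa was kept with detection on 4 of the 17 arrays and H2-Aa on 6. A marker could be kept through arrays numbered 3 alone, which may enlarge the difference of the 8 kept. The size of this effect was not tested. The summed normalized intensity, not on the log2 scale, of the 8 markers kept for testing ranged over 564 to 5555 (unstimulated), 520 to 4340 (IgE) and 926 to 7734 (IL-33) on the WT arrays. On the ST2KO arrays it ranged over 432 to 1867, 400 to 1610 and 491 to 1863. Of 7 neutrophil markers with a probe 0 were detected on all the arrays and 4 on none, and of 4 basophil markers Mcpt8 and Cd200r3 were detected on all and Itga2 on none. The part of other cells in the results below was not tested.

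IL-33 raised the whole group in WT cells. All 7 genes (9 of 9 probes) were higher with IL-33 than without stimulation, against 4.83% of all probes called higher, and Nfkbiz and Nfkbia had the largest changes of the group, 15.6-fold and 14.8-fold. The arrays of the 2 groups did not overlap for any of the 7 genes, which held for 13.5% of all probes in that direction. IgE raised 3 of the 7 in WT cells, Nfkbid, Nfkbib and Tnfaip3, against 4.93% of all probes called higher; their IgE arrays did not overlap the unstimulated ones, as held for 16% of all probes. The median change of the 7 was 1.74 log2 units with IL-33 and 0.79 with IgE, beside -0.008 and -0.007 over all probes. The 2 comparisons share their unstimulated arrays. A level here is the normalized log2 level of the gene's brightest probe, a change is a difference of group means with its standard error (SE), and adjusted p-values are from limma over all kept probes. In these bulk samples more cells of a type and more RNA per cell cannot be told apart.

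**Figure D1:**
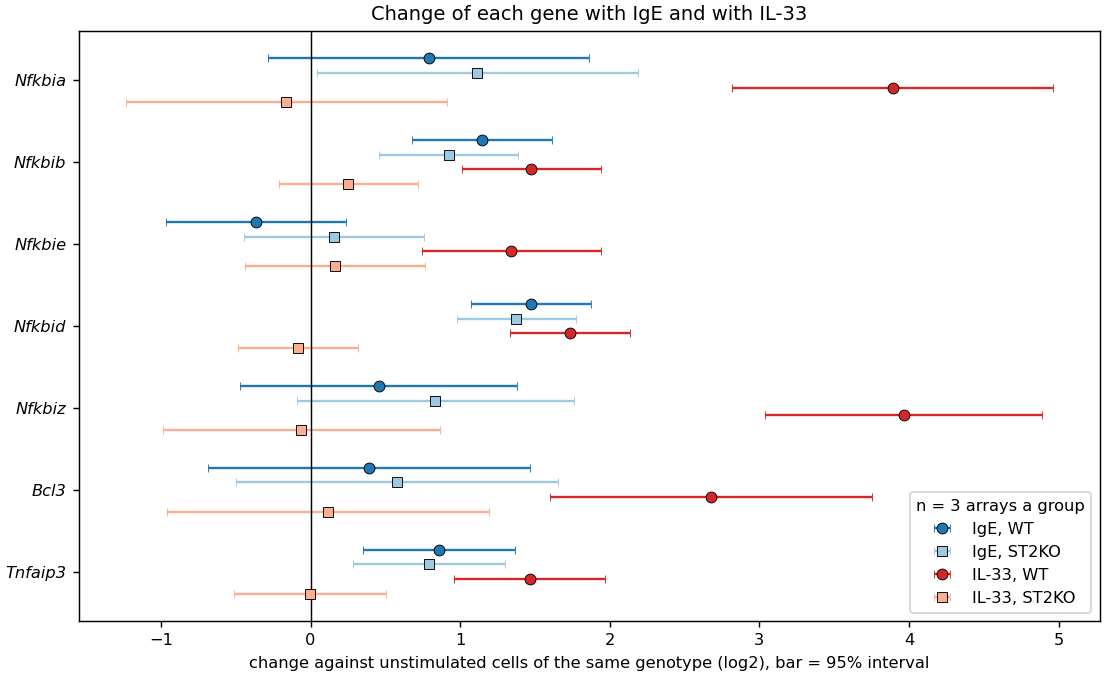
Change of each gene against unstimulated cells of the same genotype, on the log2 scale (horizontal axis), with IgE (blue) and IL-33 (red) in WT (dark circles) and ST2KO (pale squares) cells; bars are 95% intervals from limma, n = 3 arrays a group. The dark red circles of all 7 genes lie right of 0, from 1.34 (Nfkbie) to 3.96 (Nfkbiz), while the pale red squares lie between -0.16 and 0.25.

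Among the classical inhibitors, Nfkbia, known as the fast feedback inhibitor of the pathway, rose 14.8-fold with IL-33. Its probe ILMN_3001914 stood at 7.42, 7.57 and 9.18 on the 3 arrays of unstimulated WT cells, at 8.32, 8.73 and 9.49 with IgE and at 12.08, 12.01 and 11.75 with IL-33. All 3 IL-33 arrays lay above every other array, while the IgE arrays overlapped the unstimulated ones, whose array 3 was the highest by over 1 log2 unit. The change with IL-33 was 3.89 ± 0.51 (adjusted p = 0.000219), and that with IgE was 0.79 ± 0.51 (adjusted p = 0.373). With the array number as a block the change with IgE passed (adjusted p = 0.0323), and without the arrays numbered 3 it was 1.03 (adjusted p = 0.00029). The second Nfkbia probe, ILMN_1218605, read 5.63, 5.78 and 7.0 without stimulation, 5.99, 6.52 and 7.04 with IgE, and 9.23, 9.59 and 9.03 with IL-33. Its change with IL-33 was 3.14 ± 0.46 (adjusted p = 0.000534), so both probes gave the same call with IL-33. With IgE this second probe changed by 0.38 ± 0.46 (adjusted p = 0.687). It was not called with IgE under any other setting, the block and the fit without the arrays numbered 3 included (lowest adjusted p = 0.0998).

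Nfkbib encodes IkB-beta, the classical inhibitor known for slower turnover, and rose with both stimuli. WT arrays read 5.51, 5.54 and 5.61 unstimulated, 6.21, 7.08 and 6.81 with IgE, and 7.28, 6.95 and 6.85 with IL-33. Neither stimulated group overlapped the unstimulated one, and the 2 stimulated groups overlapped each other. The rise was 1.15 ± 0.22 with IgE (adjusted p = 0.00378, 2.21-fold) and 1.475 ± 0.22 with IL-33 (adjusted p = 0.000553, 2.78-fold).

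Nfkbie, which encodes IkB-epsilon, rose with IL-33 but was not called with IgE in WT cells. Probe ILMN_2690551 gave 7.94, 8.0 and 8.13 without stimulation, 7.75, 7.98 and 7.26 with IgE, and 9.71, 9.58 and 8.81 with IL-33. The IL-33 group lay above all other groups, with array 3 the lowest of its 3 arrays. The change was 1.34 ± 0.28 with IL-33 (adjusted p = 0.00659, 2.54-fold; 0.0585 with median scaling) and -0.36 ± 0.28 with IgE (adjusted p = 0.48). The dimmer probe ILMN_1238752, not detected on WT IgE array 3, rose with IL-33 by 1.10 ± 0.24 (adjusted p = 0.00903).

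Of the nuclear members, Nfkbiz had the largest response of the 7 to IL-33. IkB-zeta, its product, is a cofactor for secondary response genes in macrophages. Nfkbiz stood at 7.55, 7.43 and 9.0 in unstimulated WT cells, at 8.40, 8.45 and 8.5 with IgE, and at 12.27, 12.01 and 11.59 with IL-33. The IL-33 arrays were at least 2.59 above the same-numbered unstimulated arrays, and the IgE arrays lay between unstimulated arrays 1 and 2 on one side and 3 on the other. The change with IL-33 was 3.96 ± 0.44 (adjusted p = 5.64e-05), and that with IgE was 0.46 ± 0.44 (adjusted p = 0.583). Without the arrays numbered 3 the IgE change was 0.94 (adjusted p = 2.18e-05).

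Nfkbid, which encodes IkB-NS, rose with both stimuli. Unstimulated WT arrays gave 8.02, 7.82 and 8.13, those with IgE 9.41, 9.41 and 9.58, and those with IL-33 9.68, 9.59 and 9.90. The 3 groups did not overlap, and the stimulated groups lay closer to each other than to the unstimulated one. Nfkbid rose by 1.475 ± 0.19 with IgE (adjusted p = 0.000193, 2.78-fold) and by 1.735 ± 0.19 with IL-33 (adjusted p = 5.18e-05, 3.33-fold).

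Bcl3, whose product can bridge NF-kB p50 or p52 homodimers to transcription, was near background on most WT arrays except with IL-33. It was detected on 1 of 3 arrays in unstimulated WT cells, with IgE on 1 of 3 and with IL-33 on 3 of 3. Its WT levels were 4.21, 4.48 and 5.63 unstimulated, 4.64, 4.53 and 6.32 with IgE, and 7.46, 7.29 and 7.60 with IL-33. In the first 2 groups array 3 was the one detected and the highest. The IL-33 change was 2.68 ± 0.51 (adjusted p = 0.00335), and the IgE change 0.39 ± 0.51 (adjusted p = 0.706). No fold is given, since most arrays of the lower groups were not above background.

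Tnfaip3, the A20 gene, rose in WT cells with each stimulus. Its arrays gave 8.77, 9.04 and 8.96 without stimulation, 9.84, 10.16 and 9.35 with IgE, and 10.63, 10.60 and 9.94 with IL-33. Both stimulated groups lay above the unstimulated group, and array 3 was the lowest of each. The rise with IL-33 was 1.46 ± 0.24 (adjusted p = 0.00113, 2.76-fold). The rise with IgE was 0.86 ± 0.24 (adjusted p = 0.0325, 1.81-fold) and was less firm: leaving out 1 array at a time it was called in 1 of 6 fits, without WT IgE replicate 3 (adjusted p = 0.0122), and reached 0.164 without WT IgE replicate 2. Of 11 other settings, 2 lost this call, median scaling and no detection filter, with an adjusted p of up to 0.151.

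**Figure D2:**
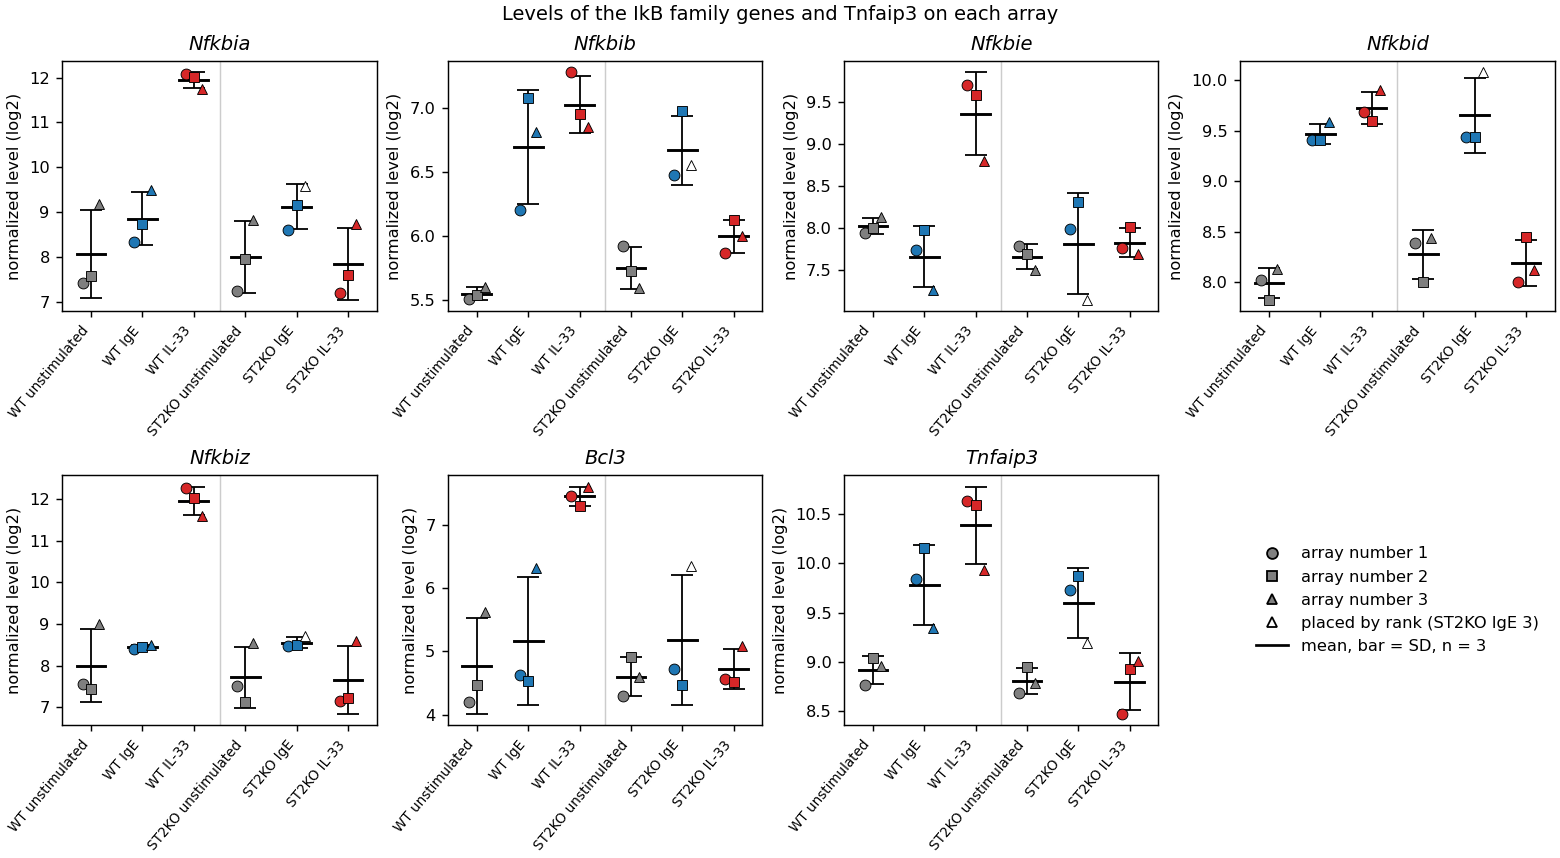
Normalized log2 level of each gene (vertical axes, each panel on its own scale) on every array of the 6 groups; symbols mark the array number, the white triangle is the array placed by rank, and bars are the mean and SD of n = 3 arrays. For Nfkbia, Nfkbiz and Bcl3 the 3 WT IL-33 arrays stand above every other array, and the gray and red ST2KO groups overlap in all 7 panels.

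Set against each other in WT cells, IL-33 gave higher levels than IgE for Nfkbiz, Nfkbia, Bcl3 and Nfkbie, 4 of 7 genes, against 1.92% of all probes called higher. The differences were 3.51 ± 0.44 for Nfkbiz (adjusted p = 0.000209, 11.4-fold), 3.10 ± 0.51 for Nfkbia (adjusted p = 0.00212, 8.57-fold), 2.29 ± 0.51 for Bcl3 (adjusted p = 0.0174, with 1 of 3 IgE arrays above background) and 1.71 ± 0.28 for Nfkbie (adjusted p = 0.00236, 3.26-fold). The Bcl3 call was lost in 4 of 6 fits that left out 1 array, with an adjusted p of up to 0.104 without WT IgE replicate 2. The difference was 0.33 for Nfkbib (95% interval -0.14 to 0.80, adjusted p = 0.593) and 0.26 for Nfkbid (95% interval -0.14 to 0.66, adjusted p = 0.645). Nfkbid was all the same 1 of 5 genes of the group whose IL-33 arrays lay above all IgE arrays, against 9.99% of all probes. For Tnfaip3 the difference was 0.61 ± 0.24 (adjusted p = 0.229), and it passed with the array number as a block (adjusted p = 0.029).

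In order of level, WT IL-33 came first for all 7 genes. For Nfkbia, Nfkbiz and Bcl3 it was followed by ST2KO IgE, and for Nfkbie by unstimulated WT cells, each time with no overlap between these neighbours, while the remaining neighbours in the order overlapped. Nfkbib had its only gap between neighbours below the 3 highest groups, WT IL-33, WT IgE and ST2KO IgE: ST2KO IgE lay 0.672 above ST2KO IL-33 in the mean. For Nfkbid the gap lay between WT IgE and unstimulated ST2KO cells (1.191), and for Tnfaip3 between ST2KO IgE and unstimulated WT cells (0.677).

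In ST2KO cells IgE raised Nfkbid, Nfkbib and Tnfaip3, 3 of 7 genes against 5.14% of all probes called higher; the unstimulated and IgE arrays of these 3 did not overlap, which held for 13.3% of all probes. On the unstimulated and then the IgE arrays, Nfkbid gave 8.38, 8.0 and 8.44, then 9.44, 9.43 and, placed by rank, 10.07. Nfkbib gave 5.92, 5.73 and 5.60, then 6.48, 6.98 and, placed by rank, 6.56. For Tnfaip3 the values were 8.68, 8.95 and 8.79, then 9.73, 9.87 and, placed by rank, 9.20. All 9 IgE values of these genes thus stood above the unstimulated ones. With the placed array in the fit, the rises were 1.38 ± 0.19 (Nfkbid, adjusted p = 0.000387), 0.92 ± 0.22 (Nfkbib, adjusted p = 0.0142) and 0.79 ± 0.24 (Tnfaip3, adjusted p = 0.0437). Without the placed array all 3 stayed called. The Tnfaip3 call was lost when any other array of the comparison was left out, with an adjusted p of up to 0.179 without ST2KO IgE replicate 2, and Nfkbib lost its call without that array (0.0775) and without unstimulated ST2KO replicate 3 (0.0509). With median scaling Nfkbid alone stayed called (0.0505 for Nfkbib and 0.125 for Tnfaip3), as it did in a fit of only the groups compared (0.0812 and 0.0913), and with no detection filter Tnfaip3 was not called (0.0967).

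The other four genes of the group were not called with IgE in ST2KO cells. Nfkbia read 7.23, 7.95 and 8.82 unstimulated and 8.60, 9.16 and, placed by rank, 9.59 with IgE, a change of 1.12 ± 0.51 (adjusted p = 0.181). Nfkbiz read 7.5, 7.12 and 8.53, then 8.46, 8.48 and, placed by rank, 8.71, a change of 0.83 ± 0.44 (adjusted p = 0.251). As in WT cells, unstimulated array 3 was the highest of its group for both. With the array number as a block 5 of 7 genes were called, Nfkbia (adjusted p = 0.00377) and Nfkbiz (adjusted p = 0.0454) among them, where 29.3% of all probes were called in either direction in place of 10.7%. Bcl3 read 4.30, 4.91 and 4.6, then 4.72, 4.47 and, placed by rank, 6.35, a change of 0.58 ± 0.51 (adjusted p = 0.529), or -0.01 without the placed array. It was detected on 1 of 3 unstimulated ST2KO arrays and, with IgE, on 1 of the 2 with a detection p. Nfkbie read 7.79, 7.70 and 7.5, then 7.98, 8.32 and, placed by rank, 7.15, a change of 0.155 (adjusted p = 0.789).

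No member was called with IL-33 in ST2KO cells, where 0% of all probes were called. The arrays gave 7.18, 7.60 and 8.72 for Nfkbia, against 7.23, 7.95 and 8.82 without stimulation. Nfkbiz gave 7.14, 7.23 and 8.59, against 7.5, 7.12 and 8.53. Each IL-33 group overlapped its unstimulated group, with array 3 the highest array of each. The remaining IL-33 values were 5.87, 6.13 and 6.00 for Nfkbib, 7.76, 8.02 and 7.70 for Nfkbie, 8.0, 8.45 and 8.12 for Nfkbid, 4.56, 4.51 and 5.09 for Bcl3, and 8.48, 8.93 and 9.01 for Tnfaip3. Changes over the 7 genes ran from -0.16 (Nfkbia) to 0.25 (Nfkbib), with a median of -0.003 beside -0.001 over all probes. At an unadjusted p under 0.05 limma called 0 of the 7 and 376 of 19514 probes (1.93%). The 95% interval of the Nfkbiz change was -0.99 to 0.86, and the median half-width of such intervals over all probes was 0.452, which bounds what 3 arrays a group could show.

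The IL-33 response differed between the genotypes for Nfkbia, Nfkbiz, Nfkbid and Tnfaip3, tested as the interaction of genotype and stimulus. These 4 of 7 genes had a lower response in ST2KO cells, against 1.14% of all probes. The difference of responses (ST2KO minus WT) was -4.05 ± 0.71 for Nfkbia (adjusted p = 0.00869; second probe -2.91, adjusted p = 0.0337), -4.03 ± 0.62 for Nfkbiz (adjusted p = 0.00435), -1.82 ± 0.27 for Nfkbid (adjusted p = 0.00317) and -1.47 ± 0.34 for Tnfaip3 (adjusted p = 0.038). The difference was negative for each array number in all 7 genes. Bcl3 (-2.56 ± 0.72, adjusted p = 0.0846), Nfkbib (-1.22 ± 0.31, adjusted p = 0.0555) and Nfkbie (-1.18 ± 0.40, adjusted p = 0.169) missed the threshold. Outside WT IL-33, Bcl3 was detected on 1 of 3 arrays in each group of this test. With the array number as a block all 7 passed, with adjusted p = 0.00116 for Bcl3, 0.0108 for Nfkbib and 0.0105 for Nfkbie, where 13% of all probes passed in either direction in place of 1.93%. Without the arrays numbered 3 all 7 passed as well, with 19.7% of all probes. The Tnfaip3 call was lost in 10 of 12 fits that left out 1 array, with an adjusted p of up to 0.118 without WT IL-33 replicate 1, and the call of the second Nfkbia probe in 9 of 12, with up to 0.101 without WT IL-33 replicate 2. Of 11 other settings, 2 lost the Tnfaip3 call as well, with an adjusted p of up to 0.165. Without WT IL-33 replicate 3, 6 of the 7 genes were called.

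Before stimulation the genotypes gave no call for any member: 0 of 7 genes, against 0.0154% of all probes, and 0 of 7 at an unadjusted p under 0.05 in limma, against 719 of 19514 probes. Changes ran from -0.36 to 0.28 log2 units. Nfkbie had the lowest, and its 3 ST2KO arrays (7.79, 7.70 and 7.5) lay below its 3 WT arrays (7.94, 8.0 and 8.13), as 3.9% of all probes did in that direction. The IgE response differed between genotypes by -0.22 to 0.52 over the 7 genes with 0 called, against 0% of all probes called; 0 of 7 genes and 259 of 19514 probes had an unadjusted p under 0.05. The median half-width of the 95% intervals of such differences over all probes was 0.639. Some members had wider intervals: -1.19 to 1.84 for Nfkbia, -1.34 to 1.71 for Bcl3 and -0.93 to 1.69 for Nfkbiz. That of Nfkbid was -0.665 to 0.466.

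Several of these values differed between array 3 and the other two. In unstimulated WT cells, Nfkbia was 1.69 higher on array 3 than on the mean of arrays 1 and 2, Nfkbiz 1.51 higher and Bcl3 1.28 higher. With IL-33 in WT cells the same differences were -0.29, -0.55 and 0.22. Taken between arrays of one number, the WT IL-33 change of Nfkbiz was therefore 4.72, 4.58 and 2.59 for numbers 1, 2 and 3, that of Nfkbia 4.66, 4.44 and 2.57, and that of Bcl3 3.25, 2.82 and 1.97. Number 3 gave the lowest signed change for 6 of the 7 genes, and for 669 of the 943 probes called higher (70.9%). Nfkbid was the exception among the members, at 1.67, 1.77 and 1.77. For Tnfaip3 the 3 changes were 1.87, 1.56 and 0.97, for Nfkbie 1.77, 1.58 and 0.68, and for Nfkbib 1.77, 1.41 and 1.25. With IgE in WT cells number 3 gave the lowest signed change for 4 of the 7 genes. The same held for 579 of the 962 probes called higher (60.2%). Nfkbie, 1 of these 4, was not called, and its fall (-0.192, -0.025 and -0.872) was largest on number 3. On the same arrays the mean levels of the macrophage and dendritic cell markers and of the 10 mast cell markers (0.399 to 0.79) were higher than on arrays 1 and 2 in all 6 groups. Those of 2 erythroid markers were lower in all 6 (-1.324 to -0.572). So were those of 9 housekeeping genes (-0.412 to -0.133) and of 3 basophil markers (-0.404 to -0.01). The part of these markers, or of a general shift of these arrays, in the differences was not tested.

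**Figure D3:**
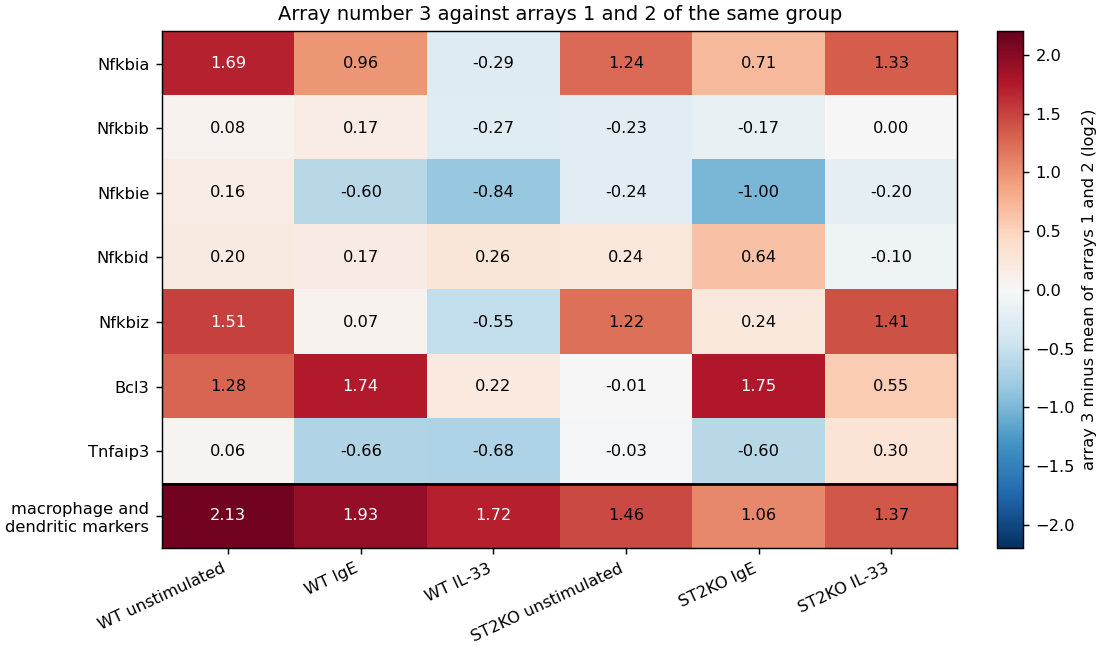
Level on array 3 minus the mean of arrays 1 and 2 of the same group, on the log2 scale (colour and printed value), for each gene and, in the bottom row, for the mean of the 8 macrophage and dendritic cell markers kept for testing; columns are the 6 groups. Nfkbia is higher on array 3 in 5 of the 6 groups and lower with IL-33 in WT cells (-0.29), while the markers are higher in all 6.

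**Figure D4:**
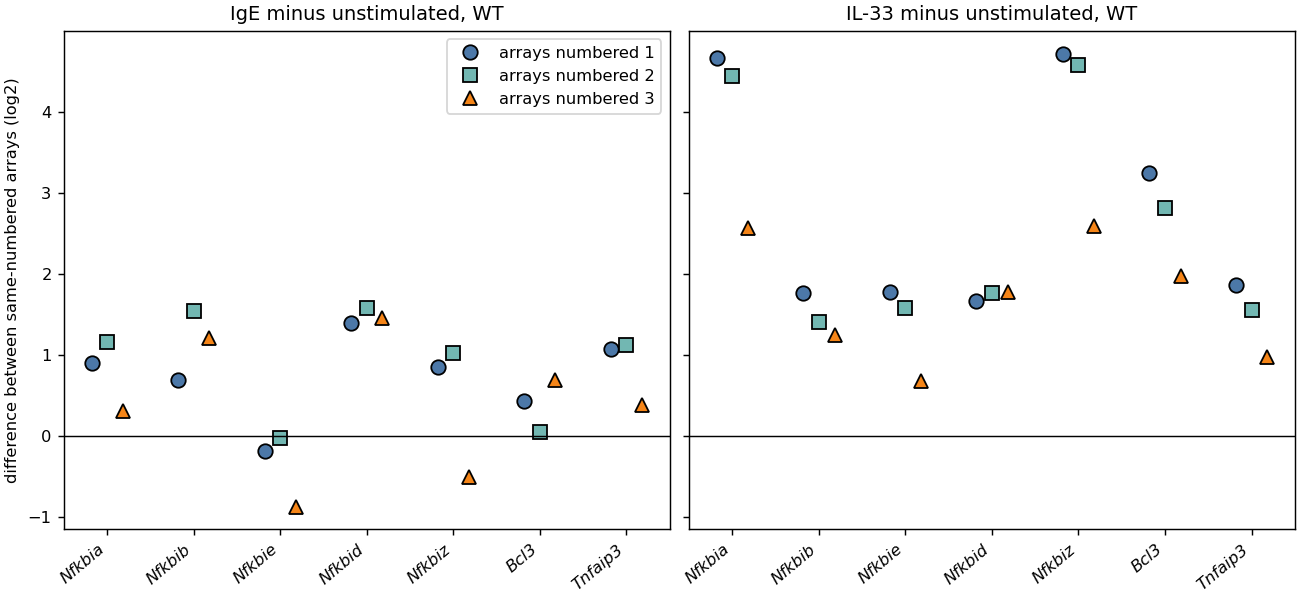
Difference between same-numbered stimulated and unstimulated WT arrays for each gene, on the log2 scale (vertical axis), with IgE (left) and IL-33 (right); symbols mark the array number, and each point is 1 pair of arrays. With IL-33 all points lie above 0, and number 3 is the lowest of 3 for every gene except Nfkbid.

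The genes of the NF-kB subunits were examined in the same way. Of 4 subunit genes with a probe, 3 rose with IL-33 and 1 with IgE in WT cells, against 4.83% and 4.93% of all probes. Nfkb2, the p100 and p52 precursor, stood at 6.04, 5.84 and 6.27 unstimulated, 7.61, 7.11 and 7.07 with IgE and 9.50, 9.47 and 8.53 with IL-33, with no overlap between the groups. It rose by 1.21 ± 0.28 with IgE (adjusted p = 0.0116) and by 3.11 ± 0.28 with IL-33 (adjusted p = 1.78e-05). Relb rose with IL-33 by 2.80 ± 0.40 (adjusted p = 0.000403) and Rel by 2.08 ± 0.27 (adjusted p = 0.000222). With IgE, Relb stood at 1.18 ± 0.40 (adjusted p = 0.072; 0.00361 with the array number as a block). Rela, the gene of the p65 subunit, stood at -0.14 with IgE (adjusted p = 0.583) and 0.22 with IL-33 (adjusted p = 0.359).

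The genes upstream of the inhibitors form 2 lists. Of 16 genes of the IKK complex and of the route to it from the IL-33 receptor, 1 rose with IL-33 in WT cells, against 4.83% of all probes: Rnf31, a subunit of the linear ubiquitin ligase, by 0.69 ± 0.18 (adjusted p = 0.0241); the call was lost with median scaling (0.366). With IgE in WT cells 0 of the 16 were called by limma, against 4.93% of all probes higher and 5.02% lower, and 2 had an unadjusted p under 0.05, against 24.3% of all probes. In ST2KO cells IgE gave 2 calls among the 16, Traf6 higher (0.61, adjusted p = 0.049) and Rbck1 lower (-0.71, adjusted p = 0.0211), against 5.14% and 5.53% of all probes. Both genes encode ubiquitin ligase components of the route; they, and Syk and Bcl10 below, were named after their values were seen. Myd88, the adaptor of the IL-33 receptor, stood at -0.16 with IgE (adjusted p = 0.613) and -0.21 with IL-33 (adjusted p = 0.466; 0.00869 without the arrays numbered 3). Tab1, of the same list, stood at -0.05 with IgE (adjusted p = 0.878) and -0.15 with IL-33 (adjusted p = 0.601). Of 6 genes of the route from the IgE receptor to IKK, limma called 0 with either stimulus in WT cells. At an unadjusted p under 0.05 there were 2 with IgE and 1 with IL-33, against 24.3% and 24.2% of all probes. Prkcb and Prkcd, the brightest of the 6, stood at -0.039 and -0.135 with IgE, and at -0.11 and -0.145 with IL-33. Set against IgE, IL-33 gave higher levels for 2 of the 6, the kinase gene Syk (0.86, adjusted p = 0.0152) and the adaptor gene Bcl10 (0.82, adjusted p = 0.012), against 1.92% of all probes. The median change was 0.03 for the first list and -0.06 for the second with IL-33, beside -0.008 over all probes. With IgE in WT cells the medians were -0.03 and -0.28, beside -0.007 over all probes.

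Of 18 genes listed as A20 partners or as other NF-kB feedback genes, 5 rose with IL-33 and 0 fell in WT cells, against 4.83% of all probes called higher and 5.09% lower. With IgE 3 rose and 1 fell, against 4.93% and 5.02% of all probes, so the single fall is near the general rate. Zc3h12a, which encodes the ribonuclease Regnase-1, had levels of 6.29, 6.02 and 8.31 unstimulated, 6.25, 6.52 and 7.75 with IgE and 10.16, 9.98 and 9.79 with IL-33. Its IL-33 arrays stood above all others, with array 3 the highest of the unstimulated and IgE arrays, and its change with IL-33 was 3.10 ± 0.56 (adjusted p = 0.00236, 8.60-fold). Tax1bp1 and Rnf11, partners of A20 in its ubiquitin-editing complex, rose with both stimuli: Tax1bp1 by 0.66 ± 0.13 with IgE (adjusted p = 0.00374) and 0.83 ± 0.13 with IL-33 (adjusted p = 0.000616), and Rnf11 by 0.62 ± 0.15 (adjusted p = 0.015) and 0.73 ± 0.15 (adjusted p = 0.00539). With median scaling Rnf11 lost both calls (0.155 and 0.131). Birc2, the gene of the ubiquitin ligase cIAP1, fell by 0.62 with IgE (adjusted p = 0.0207; 0.117 without WT IgE replicate 2). The change of Sqstm1 with IL-33 was 0.875 ± 0.29 (adjusted p = 0.0714; 5.06e-05 with the array number as a block). With IgE it was -0.31 (adjusted p = 0.572). Tollip stood at 0.515 with IgE (adjusted p = 0.33) and -0.17 with IL-33 (adjusted p = 0.789). The median change of the list was 0.37 with IL-33 and 0.41 with IgE.

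Of 6 genes known to need IkB-zeta in mouse macrophages or fibroblasts, 2 rose with IL-33 and 1 with IgE in WT cells, against 4.83% and 4.93% of all probes. Il6, a cytokine gene, read 7.70, 7.51 and 7.09 unstimulated, 9.32, 9.54 and 8.79 with IgE, and 10.39, 10.32 and 10.01 with IL-33. The 3 groups did not overlap, with rises of 1.785 ± 0.48 (adjusted p = 0.0285) and 2.81 ± 0.48 (adjusted p = 0.00167). The IgE call was lost with median scaling (0.0684) and in 5 of 6 fits that left out 1 array, with up to 0.119 without WT IgE replicate 2. Csf2, the gene of the growth factor GM-CSF, was detected on 1 of 3 unstimulated arrays and on all stimulated WT arrays, at 4.75, 4.29 and 4.41, then 5.42, 6.30 and 5.33 with IgE and 9.84, 9.79 and 8.80 with IL-33. Its change against this group, most of it not above background, was 4.99 ± 0.66 with IL-33 (adjusted p = 0.000249) and 1.20 ± 0.66 with IgE (adjusted p = 0.289). The IL-33 change was 1.41 ± 0.46 for Lcn2, a lipocalin gene (adjusted p = 0.0675; 0.000103 with the array number as a block), and for Cebpd, a transcription factor gene, -0.50 ± 0.22 (adjusted p = 0.168; 0.0266 with the block). Lcn2 was detected on 1 of 3 unstimulated WT arrays and on 3 of 3 with IL-33, so its change too was mostly against background. With IgE the Cebpd change was -0.57 ± 0.22 (adjusted p = 0.111). As a control, the median change of 9 housekeeping genes was 0.18 with IgE and 0.10 with IL-33.

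Likeness to each member was measured as the root mean square difference over the 18 arrays between genes centred on their own means, among 10528 other genes, with the arrays shared by all. Nfkbia and Nfkbiz were each the nearest gene to the other, at 0.363 log2 units, although Nfkbia's group means spanned 4.11 and those of Nfkbiz 4.305. Zc3h12a was second for both, at 0.474 from Nfkbia and 0.472 from Nfkbiz, followed by the chemokine genes Cxcl2 (0.549) for Nfkbia and Cxcl16 (0.576) for Nfkbiz. Nearest to Bcl3 were Dipk1c (0.323), Cxcl2 (0.389) and Sema6d (0.404). The nearest to Nfkbid were Vegfc (0.267), Tmbim1 (0.269) and Alas1 (0.277), and to Nfkbib they were Ube2f (0.257), Zfp91 (0.277) and Slc6a8 (0.278). For Nfkbie they were Bcor (0.273), Slc6a13 (0.302) and Myl4 (0.31), and for Tnfaip3 Gabpb1 (0.233), Rabgef1 (0.259) and Tec (0.262). A smaller span leaves less room to differ, so these distances rank genes within a member and not between members.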

How the data were processed

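RNA was extracted with RNeasy kits and biotin-labelled, per the labels' protocols. The authors deposited, per the file headers, for 45281 probes on 18 arrays, an unnormalized intensity with its detection p-value, and a log2 table whose 18 columns share the same sorted values to within 0.00077 (quantile normalized; the background step is not given in the sources used here). Intensities were processed with neqc (offset 16) of limma 3.58.1 in R 4.3.3. For the incomplete array (35269 intensities missing), ranks in the deposited log2 table were placed on the distribution of the 17 complete arrays. Symbols came from the probe table, updated to GRCm38.p6 names: 34885 probes carried 1, 18 several and 10378 none. A limma fit of 6 group means (12 residual degrees of freedom, eBayes with trend) over the 19514 kept probes gave 8 comparisons adjusted by Benjamini-Hochberg at 0.05. The number of arrays limits the precision.

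Each gene is described by its brightest kept probe. Per list the text gives up to 3 genes with the smallest adjusted p and up to 2 of the brightest that did not pass, for the stimuli in WT cells, and per gene the 3 most alike genes where group means span at least 1 log2 unit. Traf6, Rbck1, Syk and Bcl10 were named outside this rule. The members and lists were chosen with earlier results of these data known, and so was the set of arrays numbered 3. Residuals of same-numbered arrays correlated over probes at 0.356 to 0.898 in all 45 pairs. Arrays of different numbers were not compared, and array 3 stood apart in every group. These values therefore cannot show that the numbers pair the arrays. The alternative fit takes the numbers as a block within genotype. For the comparison of unstimulated genotypes the block is instead shared by both genotypes. The series' design text also names basophil cultures, which were not analysed here.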

Additional observations from a re-analysis of the deposited data

Results flagged for a closer look

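The IL-33 response of Nfkbia, Nfkbiz, Nfkbid and Tnfaip3 is given here because a test of the difference between the genotypes passed. The response in ST2KO cells minus that in WT cells was -4.05 for Nfkbia (probe ILMN_3001914, adjusted p = 0.00869) and -2.91 by its second probe (ILMN_1218605, adjusted p = 0.0337). It was -4.03 for Nfkbiz (adjusted p = 0.00435), -1.82 for Nfkbid (adjusted p = 0.00317) and -1.47 for Tnfaip3 (adjusted p = 0.038), with 3 of 3 array numbers lower in each case.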

How the results depend on the processing

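The limits come from 3 arrays a group, from array 3 of each group and from 1 array placed by rank. Of 573 values for member probes under other settings, 529 kept direction and side of the threshold, 12 lost the call, 26 gained it and 6 turned direction; of 372 with 1 array left out the counts were 317, 36, 4 and 15. For 23 results of named list genes, 229 of 253 and 117 of 138 kept both, and 0 turned. Tab1, Tollip, Prkcb, Prkcd, Traf6, Rbck1, Syk and Bcl10, and the IgE changes of Sqstm1 and Cebpd, were not among these. All 7 members stayed called with IL-33 in WT cells in every fit that left out 1 array, and 0 of 7 were called with IL-33 in ST2KO cells under every setting run. The causes were not tested unless named.

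With the replicate block, the all-probe counts were 5526 (IgE, WT), 5395 (IL-33, WT), 2662 (IL-33 against IgE), 5725 (IgE, ST2KO), 43 (unstimulated genotypes) and 2544 (interaction with IL-33), in place of 1942, 1937, 744, 2082, 3 and 377, and the member counts were 5 of 7 (IgE, ST2KO) and 7 of 7 (interaction with IL-33). The block changed no other member count by over 1.5 times. Without the arrays numbered 3 the counts were 6236, 6562, 3412, 6064, 731 and 3854, 16 probes were called in the interaction with IgE in place of 0, and the members called were 5 (IgE, WT), 6 (IgE, ST2KO) and 7 (interaction with IL-33). With 1 probe per gene, which tests fewer features, they were 1249, 1246, 466 and 1326, and 1 for the unstimulated genotypes. A fit on only the groups compared, which has fewer samples, gave 1201 (IL-33, WT), 467 (IL-33 against IgE), 705 (IgE, ST2KO, with 1 member), 0 (unstimulated genotypes) and 204 (interaction with IL-33). Median scaling gave 1340 probes and 1 member (IgE, ST2KO) and 6 probes (unstimulated genotypes), and no detection filter gave 1339 (IgE, ST2KO) and 205 (interaction with IL-33). Without the incomplete array 1 probe was called in the interaction with IgE.

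Median scaling shifted the median change of all probes from -0.008 to -0.135 (IL-33, WT), from 0.004 to -0.115 (unstimulated genotypes) and from 0.008 to 0.174 (interaction with IL-33). The percentage of called probes that were higher went from 49.5 to 32.6 (IgE, WT), from 48.7 to 20.2 (IL-33, WT), from 50.4 to 39.5 (IL-33 against IgE) and from 40.8 to 75.5 (interaction with IL-33), while called members kept their direction.

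Leaving out 1 array at a time, the all-probe counts ranged from 875 to 1980 (IgE, WT), 899 to 2726 (IL-33, WT), 370 to 764 (IL-33 against IgE), 999 to 2526 (IgE, ST2KO, with 1 to 3 members), 2 to 6 (unstimulated genotypes), 0 to 1 (interaction with IgE) and 146 to 795 (interaction with IL-33). The direction turned for changes that were not called. The second Nfkbie probe stood at 0.15 with IgE in WT cells without the arrays numbered 3, Bcl3 at -0.01 with IgE in ST2KO cells without those arrays or without the incomplete array, and with IL-33 in ST2KO cells Tnfaip3 at 0.03 with median scaling and, without the arrays numbered 3, Bcl3 at -0.07 and Nfkbid at 0.03. With 1 array left out, the IgE change ranged from -0.19 to 0.82 (Bcl3) and from -0.4 to 0.11 (second Nfkbie probe) in WT cells, and in ST2KO cells from -0.01 to 0.93 (Bcl3), -0.06 to 0.19 (second Nfkbie probe) and -0.09 to 0.49 (Nfkbie). The IL-33 change in ST2KO cells ranged from -0.07 to 0.27 (Bcl3), -0.61 to 0.25 (Nfkbia), -0.22 to 0.01 (Nfkbid), -0.53 to 0.34 (Nfkbiz) and -0.1 to 0.16 (Tnfaip3).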
